A study of Mus musculus with 18 samples.

Results

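The transcripts of 10 genes that mark retinal bipolar cells were followed in 18 libraries of mouse retinal explants, among 34385 genes of a knockdown table and 34396 genes of an overexpression table. They were chosen by gene symbol as known markers and regulators of these cells, and each symbol was found in both tables. They are the transcription factor genes Vsx1, Bhlhe22, Bhlhe23 and Lhx4, the genes Grm6 and Trpm1 of the glutamate response, and the genes Prkca, Cabp5, Scgn and Pcp2, which encode signalling and calcium-binding proteins. All are protein-coding. On GRCm38 the genes the results turn on are Trpm1 at chr7:64153835-64269775 (plus strand), Cabp5 at chr7:13398132-13408887 (plus strand), Pcp2 at chr8:3623371-3625545 (minus strand), Bhlhe22 at chr3:18054174-18057517 (plus strand) and Lhx4 at chr1:155698031-155751684 (minus strand).

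Bipolar cells are interneurons that carry the signal of rods and cones to amacrine and ganglion cells. In the mouse they are among the last retinal neurons to be born, mostly after birth, and they mature over the following weeks. ON bipolar cells answer light with the metabotropic glutamate receptor encoded by Grm6: glutamate released in darkness acts through a G protein to close the cation channel encoded by Trpm1, and the channel opens when light stops the release. OFF bipolar cells use ionotropic glutamate receptors instead, and the transcription factor Otx2 acts upstream of the whole class.

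Retinas of ICR mice, an outbred stock, received plasmids by electroporation at postnatal day 0.5, always with a second plasmid for EGFP, and were cultured as explants for 3 days. EGFP-positive cells were then sorted and their mRNA was sequenced. Nmnat1 and Nmnat2 encode enzymes that make NAD, in the nucleus and at the Golgi apparatus. In the knockdown table the groups were Nmnat1 knockdown, Nmnat2 knockdown and a scramble plasmid, and in the overexpression table they were Nmnat1 overexpression, Nmnat2 overexpression and an empty vector, with 3 libraries each. Which promoter drives EGFP, and in which cell types, is not stated in the labels, and markers of several retinal cell types were found in every library. The labels do not tie libraries to separate animals or explants, so every p-value here rests on a spread between samples that may be technical. The titles of 1 Nmnat2 knockdown and 1 Nmnat2 overexpression sample name Nmnat3, whereas their other labels name Nmnat2, and the other labels were followed.

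Levels are given in ppm, parts per 1000000 of a library's total deposited signal, which is scaled to transcript length, so that levels of different genes can be set beside each other. Nmnat1 lay at 7.37 to 8.54 ppm in Nmnat1 knockdown libraries, against 17.0 to 20.9 ppm in scramble libraries. Nmnat2 lay at 0.503 to 1.27 ppm in Nmnat2 knockdown libraries, against 0.624 to 6.22 ppm in scramble libraries, and these ranges overlap. The overexpressed genes reached 14797 to 27832 ppm for Nmnat1 and 20911 to 22818 ppm for Nmnat2 in their own groups, against at most 22.6 ppm and 2.71 ppm in empty vector libraries. Nmnat1 was also at 39.4 to 45.6 ppm in Nmnat2 overexpression libraries, and Nmnat2 at 3.12 to 6.50 ppm in Nmnat1 overexpression libraries. Both were above the empty vector ranges of 18.7 to 22.6 ppm and 1.14 to 2.71 ppm. Some libraries stood apart. Library N2_2, in the Nmnat2 knockdown group, had a score of 129 on the first principal component, and the other 8 libraries of its table had scores between -31.2 and -5.83. In the overexpression table the libraries numbered 1 had scores of 24.5 to 91.4 and the others between -50.0 and -4.14. The counts of genes past the threshold are therefore also given without N2_2 and without the libraries numbered 1. Without N2_2 the Nmnat2 knockdown group holds only N2_1 and N2_3. Without the libraries numbered 1, each group of the overexpression table holds only those numbered 2 and 3. The libraries left out were picked from these same data, so p-values of such fits do not measure the spread between all replicates.

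Promoter sequences from RefSeq, on the build GRCm38.p6, were at hand for 9 of the 10 genes. The promoters of Trpm1, Cabp5 and Pcp2 are shown because these genes carried the differences described below for Nmnat2 knockdown. Each runs 5′ to 3′ on the gene's own strand from 250 bases before the start site to 50 bases from it. Capitals mark TAATCC in either orientation (TAATCC, or GGATTA on the strand shown), the letters preferred by the homeodomain factors Crx and Otx2. The stretches are chr7:64153585-64153884 on the plus strand for Trpm1, at the first of 2 listed start sites, chr7:13397905-13398204 on the plus strand for Cabp5, and chr8:3625498-3625797 on the minus strand for Pcp2, at the outermost of 4 listed start sites.
Trpm1: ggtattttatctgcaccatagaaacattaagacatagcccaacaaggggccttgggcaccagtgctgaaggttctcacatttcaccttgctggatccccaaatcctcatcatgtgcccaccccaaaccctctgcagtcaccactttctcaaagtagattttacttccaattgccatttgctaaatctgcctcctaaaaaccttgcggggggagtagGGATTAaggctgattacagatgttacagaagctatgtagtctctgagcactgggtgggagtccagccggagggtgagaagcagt
Cabp5: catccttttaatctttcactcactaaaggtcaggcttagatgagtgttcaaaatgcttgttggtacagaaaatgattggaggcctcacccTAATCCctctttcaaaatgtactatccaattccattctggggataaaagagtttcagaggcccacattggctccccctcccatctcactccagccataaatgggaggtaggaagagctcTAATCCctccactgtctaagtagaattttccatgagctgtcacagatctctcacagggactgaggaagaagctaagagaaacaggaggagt
Pcp2: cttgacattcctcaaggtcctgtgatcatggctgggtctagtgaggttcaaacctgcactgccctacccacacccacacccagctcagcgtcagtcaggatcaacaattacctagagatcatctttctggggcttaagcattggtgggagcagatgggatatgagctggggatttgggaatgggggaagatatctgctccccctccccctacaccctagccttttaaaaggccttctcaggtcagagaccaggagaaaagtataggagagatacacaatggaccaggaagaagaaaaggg
The Trpm1 promoter holds the letters once, beginning 34 bases before the start site. The Cabp5 promoter holds them at 160 and at 41 bases before the start site, and the Pcp2 stretch does not hold them. Of the 13 promoters listed for the 9 genes, 2 hold the letters, and 7.06% of all 32851 mouse promoters of the same length do. A match describes the sequence and was not tied to binding by any data here.

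The 10 genes covered a wide range of levels at this early age. Pcp2, which encodes a regulator of Go signalling found in bipolar and cerebellar Purkinje cells, averaged 433 ppm over the 9 knockdown libraries and 490.0 ppm over the 9 overexpression libraries, above 99.0% and 99.2% of all genes. It made up between 78.5% and 94.9% of the summed signal of the 10 genes in the knockdown libraries and between 83.8% and 90.8% in the overexpression libraries. Lhx4, a LIM homeodomain gene of cone bipolar cells that is also active in cones, was next with means of 28.8 ppm and 35.1 ppm. Cabp5, Bhlhe22, Prkca and Trpm1 averaged between 3.11 and 11.4 ppm, and Scgn averaged 1.97 ppm and 1.00 ppm.

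Vsx1, Grm6 and Bhlhe23 were close to the lower end of what could be measured. Their means were between 0.285 and 0.484 ppm, above 20.2% to 29.2% of all genes. They did not reach 1 ppm in 3 libraries of either table and were not tested, which leaves 7 of the 10 genes with a test in both tables. Vsx1 and Bhlhe23 have 1 annotated transcript each, for which the deposited values stood for about 1.96 to 58.8 reads of Vsx1 and 0 to 40.9 reads of Bhlhe23 per library.

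**Figure D1:**
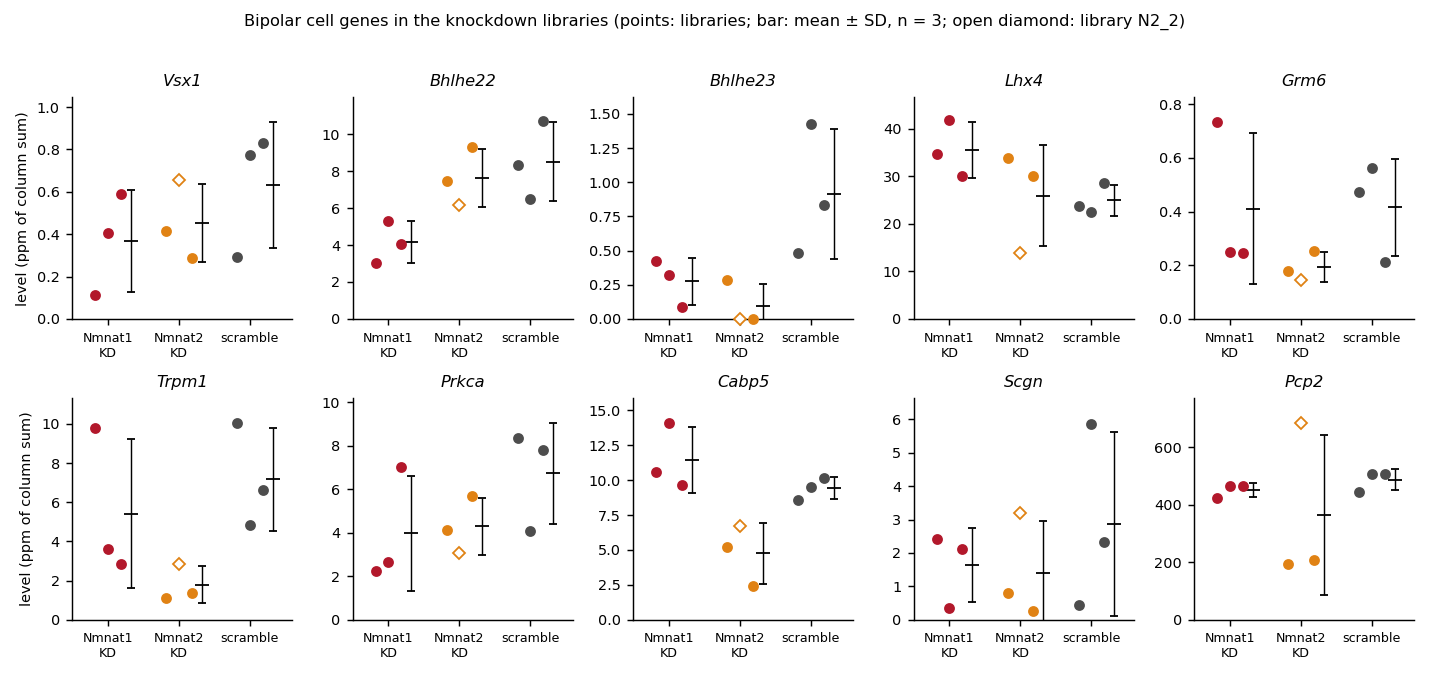
Levels of the 10 bipolar cell genes in the knockdown table, in ppm of the library total on a linear axis from 0, with the groups Nmnat1 KD (knockdown), Nmnat2 KD and scramble from left to right. Points are libraries, the open diamond is N2_2, and bars are the mean and SD of 3 libraries, cut at 0 where they would run below it. Trpm1 and Cabp5 are lower in all 3 Nmnat2 knockdown libraries than in any scramble library, and Pcp2 is at 195 and 209 ppm in the other 2 Nmnat2 knockdown libraries and at 683 ppm in N2_2.

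Of the transcription factor genes, Bhlhe22 and Lhx4 could be tested in the knockdown table. Bhlhe22 encodes a basic helix-loop-helix factor needed for a type of OFF cone bipolar cell and for subsets of amacrine cells. Bhlhe22 was at 3.05, 5.31 and 4.05 ppm in Nmnat1 knockdown, at 7.44, 6.16 and 9.30 ppm in Nmnat2 knockdown and at 8.31, 6.46 and 10.7 ppm in scramble libraries. All 3 Nmnat1 knockdown libraries were below all scramble libraries, and the Nmnat2 knockdown libraries overlapped with them. The log2 difference for Bhlhe22, on the log2(level + 1) scale used for every test, was -0.88 ± 0.33 (SE) in Nmnat1 knockdown against scramble. That did not pass the threshold of 0.05 (limma with Benjamini-Hochberg adjustment over all genes kept, adjusted p = 0.374; unadjusted p = 0.0212). In Nmnat2 knockdown the log2 difference of Bhlhe22 was -0.13 ± 0.33 (limma adjusted p = 0.884).

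Amacrine markers were also low in the Nmnat1 knockdown libraries. The summed level of 12 amacrine genes was 278 to 302 ppm in Nmnat1 knockdown libraries, 484 to 1183 ppm in Nmnat2 knockdown libraries and 512 to 539 ppm in scramble libraries. In Nmnat2 knockdown the amacrine sum was above the scramble range in N2_1 and N2_3, where Bhlhe22 was not. Of the 12, 9 were lower in all Nmnat1 knockdown libraries than in any scramble library, where 24.8% of all tested genes did not overlap in either direction. Calb2, which encodes calretinin, fell to 15.2 ± 0.977 ppm in Nmnat1 knockdown, against 91.4 ± 6.95 ppm in scramble (SD, n = 3 each; limma adjusted p = 0.0176). In Nmnat2 knockdown against scramble, Calb2 was the 1 gene of the 12 that passed, beside 0.436% of all genes, and it rose to 280.0 ± 103 ppm. Without N2_2, 6 of the 12 fell in Nmnat1 knockdown and 8 rose in Nmnat2 knockdown by limma. Of all genes, 8.43% (Nmnat1) and 15.5% (Nmnat2) passed without N2_2. The part of amacrine cells in the Bhlhe22 difference was not tested.

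Lhx4 was at 34.6, 41.7 and 30.1 ppm in Nmnat1 knockdown, at 33.7, 13.9 and 30.1 ppm in Nmnat2 knockdown and at 23.8, 22.4 and 28.7 ppm in scramble libraries. The Nmnat1 knockdown libraries were all above the scramble libraries, with a log2 difference of 0.49 ± 0.32 that did not pass (limma adjusted p = 0.635). The lowest Nmnat2 knockdown value was that of N2_2, and the log2 difference of that group was -0.03 ± 0.32 with all libraries and 0.35 ± 0.18 without N2_2 (limma adjusted p = 0.975 and 0.227).

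Vsx1, a homeodomain gene of late cone bipolar differentiation, was at 0.112 to 0.588 ppm in Nmnat1 knockdown, at 0.288 to 0.655 ppm in Nmnat2 knockdown and at 0.290 to 0.830 ppm in scramble libraries, and all 3 groups overlapped. Bhlhe23, a basic helix-loop-helix gene needed for rod bipolar maturation, was at 0.422, 0.318 and 0.0845 ppm in Nmnat1 knockdown libraries. In Nmnat2 knockdown it was at 0.284 ppm in 1 library and listed at 0 in the other 2, and the scramble libraries had 0.482, 1.43 and 0.835 ppm. Every knockdown library was below every scramble library for Bhlhe23, at about 0 to 11.9 reads in knockdown libraries and 22.8 to 40.9 reads in scramble libraries. These reads are not scaled to library depth. Of the genes that were tested, 24.8% (Nmnat1) and 21.9% (Nmnat2) did not overlap with scramble in either direction. Bhlhe23 was below the filter on low levels and was not tested.

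Of the glutamate cascade genes, Trpm1 showed the largest difference in Nmnat2 knockdown among the 7 tested bipolar genes. It was at 9.78, 3.63 and 2.86 ppm in Nmnat1 knockdown, at 1.13, 2.86 and 1.36 ppm in Nmnat2 knockdown and at 10.02, 4.84 and 6.63 ppm in scramble libraries. All Nmnat2 knockdown libraries were below all scramble libraries, whereas the Nmnat1 knockdown libraries overlapped with the scramble libraries. The means were 1.78 ± 0.940 ppm in Nmnat2 knockdown and 7.16 ± 2.63 ppm in scramble (SD, n = 3 each), which is 4.02-fold lower. The log2 difference was -1.56 ± 0.47 and did not pass with all libraries (limma adjusted p = 0.146; unadjusted p = 0.00733). Without N2_2 it was -1.82 ± 0.49 and passed (limma adjusted p = 0.0322). In Nmnat1 knockdown against scramble it was -0.45 ± 0.47 (limma adjusted p = 0.773).

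Trpm1 is also a gene of melanocytes and hosts the microRNA gene Mir211, and pigment cell markers were measured in the same libraries. The summed level of 9 pigment cell genes was 74.4 to 84.3 ppm in Nmnat1 knockdown, 22.1 to 31.2 ppm in Nmnat2 knockdown and 50.5 to 61.3 ppm in scramble libraries. Most of it was Dct, a gene of melanin synthesis, with means of 17.9 ± 5.33 ppm in Nmnat2 knockdown and 39.0 ± 6.68 ppm in scramble (limma adjusted p = 0.0883). Of the 5 pigment cell genes that could be tested 0 passed by limma in either knockdown against scramble, with 1 (Nmnat1) and 3 (Nmnat2) at an unadjusted p under 0.05. Without N2_2, 1 passed in each, Tyrp1 higher in Nmnat1 knockdown and Dct lower in Nmnat2 knockdown. Of all genes, 10.5% (Nmnat1) and 16.8% (Nmnat2) had an unadjusted p under 0.05, and 8.43% and 15.5% passed without N2_2. The part of pigment cells in the Trpm1 difference was not tested. Grm6 itself was at 0.246 to 0.734 ppm in Nmnat1 knockdown, at 0.147 to 0.254 ppm in Nmnat2 knockdown and at 0.214 to 0.562 ppm in scramble libraries, and the ranges overlapped.

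Of the signalling and calcium-binding genes, Cabp5 and Pcp2 are given in full. Cabp5 encodes a calmodulin-like protein of rod bipolar and some cone bipolar cells. It was at 10.6, 14.1 and 9.64 ppm in Nmnat1 knockdown, at 5.19, 6.71 and 2.42 ppm in Nmnat2 knockdown and at 8.60, 9.51 and 10.2 ppm in scramble libraries. All Nmnat2 knockdown libraries were below all libraries of the other 2 groups. The means of Cabp5 were 4.77 ± 2.18 ppm in Nmnat2 knockdown and 9.42 ± 0.781 ppm in scramble, which is 1.97-fold lower. Its log2 difference was -0.93 ± 0.35 with all libraries and did not pass (limma adjusted p = 0.220; unadjusted p = 0.0234), and it was -1.18 ± 0.32 without N2_2, which passed (limma adjusted p = 0.0340). In Nmnat1 knockdown the Cabp5 difference from scramble was 0.24 ± 0.35 (limma adjusted p = 0.844).

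Pcp2 was at 422, 463 and 466 ppm in Nmnat1 knockdown, at 195, 683 and 209 ppm in Nmnat2 knockdown and at 444, 507 and 508 ppm in scramble libraries. The Nmnat2 knockdown libraries fell on both sides of the scramble range, with N2_2 above it and the other 2 below it. With all libraries the log2 difference of Pcp2 in Nmnat2 knockdown against scramble was -0.68 ± 0.39 (limma adjusted p = 0.408). Without N2_2, with the other 2 libraries left in the group, it was -1.26 ± 0.09 (limma adjusted p = 3.21e-05). The Pcp2 difference in Nmnat1 knockdown against scramble was -0.11 ± 0.39 (limma adjusted p = 0.942).

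Photoreceptor markers differed between the same libraries. The summed level of 8 cone genes was 2434 to 2602 ppm in Nmnat1 knockdown, 855, 4120 and 806 ppm in Nmnat2 knockdown and 2245 to 2736 ppm in scramble libraries. N2_2 was again the highest of all. Most of that sum was Gngt2, named after its values were seen, with 4030 ppm in N2_2 and 799 and 752 ppm in the other 2 Nmnat2 knockdown libraries. The cone opsin gene Opn1sw was at 69.3 ppm in N2_2 and 24.0 and 31.9 ppm in the other 2, against 131 to 155 ppm in scramble libraries. The summed level of 10 rod genes was 1676, 3462 and 1669 ppm in Nmnat2 knockdown and 4940 to 5245 ppm in scramble libraries, and in Nmnat1 knockdown it was 5447 to 5627 ppm. By limma, 2 of 8 cone genes (Gnat2 and Opn1sw) and 3 of 9 tested rod genes (Pde6b, Prph2 and Nr2e3) fell in Nmnat2 knockdown with all libraries, and 0 of either list passed in Nmnat1 knockdown, where 1 cone and 2 rod genes had an unadjusted p under 0.05. Of all genes, 0.436% passed in Nmnat2 knockdown with all libraries, and 10.5% had an unadjusted p under 0.05 in Nmnat1 knockdown. Without N2_2, 4 of 8 cone genes and 8 of 9 rod genes fell in Nmnat2 knockdown, where 15.5% of all genes passed. Without N2_2, in Nmnat1 knockdown, 2 cone genes fell, 2 rod genes rose and 2 rod genes fell, where 8.43% of all genes passed. Pet100 overlaps Pcp2 on the opposite strand. These libraries do not keep strand, so reads from any sequence the genes share cannot be assigned by strand. Pet100 was at 74.9, 154 and 70.4 ppm in Nmnat2 knockdown and at 87.6 to 122 ppm in scramble libraries. The parts of photoreceptors and of Pet100 in the Pcp2 difference were not tested. In such sorted mixtures, fewer cells of a type and less RNA per cell cannot be told apart.

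Prkca encodes protein kinase C alpha, the classic antigen of rod bipolar cells. It was at 2.22 to 7.04 ppm in Nmnat1 knockdown, at 3.09 to 5.69 ppm in Nmnat2 knockdown and at 4.08 to 8.34 ppm in scramble libraries, and the ranges overlapped. Its log2 differences from scramble were -0.71 ± 0.44 and -0.52 ± 0.44 (limma adjusted p = 0.610 and 0.590), and without N2_2 the difference in Nmnat2 knockdown was -0.35 ± 0.47 (limma adjusted p = 0.649). Scgn encodes secretagogin, a calcium sensor of cone bipolar cells. It was at 0.364 to 2.43 ppm in Nmnat1 knockdown, at 0.249 to 3.18 ppm in Nmnat2 knockdown and at 0.433 to 5.84 ppm in scramble libraries, so its groups overlapped. The mean of Scgn was 2.04-fold lower in Nmnat2 knockdown than in scramble, with a log2 difference of -0.60 ± 0.66 (limma adjusted p = 0.692), and of -1.09 ± 0.67 without N2_2 (limma adjusted p = 0.308).

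Counted together, 0 of the 7 tested bipolar genes passed in Nmnat1 knockdown against scramble by limma, where 0.144% of all 22233 tested genes passed, and 1 had an unadjusted p under 0.05, beside 10.5% of all genes. Groups did not overlap for 2 of the 7 (Bhlhe22 lower and Lhx4 higher), as for 24.8% of all tested genes. Their median log2 difference was -0.39, beside a median of all genes of -0.00. Without N2_2, which changes the shared estimate of the spread, 0 of 7 passed and 8.43% of all genes did. Bhlhe22 and Lhx4 then had limma adjusted p-values of 0.0994 and 0.1002.

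In Nmnat2 knockdown against scramble 0 of the 7 passed by limma with all libraries, where 0.436% of all genes passed, and 2 had an unadjusted p under 0.05, beside 16.8% of all genes. Groups did not overlap for 2 of the 7 (Trpm1 and Cabp5, both lower), as for 21.9% of all genes. All 7 log2 differences were negative, with a median of -0.60, but the median of all genes was itself -0.23. Under median-of-ratios scaling the median of all genes was -0.04, and 5 of the 7 were negative, with Bhlhe22 at 0.08 and Lhx4 at 0.20. Without N2_2, Trpm1, Cabp5 and Pcp2 passed, which is 3 of 7, where 15.5% of all genes passed.

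Between the arms, 0 of the 7 passed by limma in Nmnat1 knockdown against Nmnat2 knockdown with all libraries, where 2.06% of all genes passed, and 3 had an unadjusted p under 0.05, beside 16.4% of all genes. The arms did not overlap for Cabp5 and Trpm1, higher in Nmnat1 knockdown, and for Bhlhe22, lower in it, which is 3 of 7 beside 25.4% of all genes. The log2 differences were 1.17 ± 0.35 for Cabp5, 1.11 ± 0.47 for Trpm1 and -0.76 ± 0.33 for Bhlhe22 (limma adjusted p = 0.131, 0.275 and 0.285). Without N2_2, Pcp2 passed at 1.15 ± 0.09 and Cabp5 at 1.42 ± 0.32 (limma adjusted p = 2.42e-05 and 0.0155), which is 2 of 7, where 13.5% of all genes passed.

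**Figure D2:**
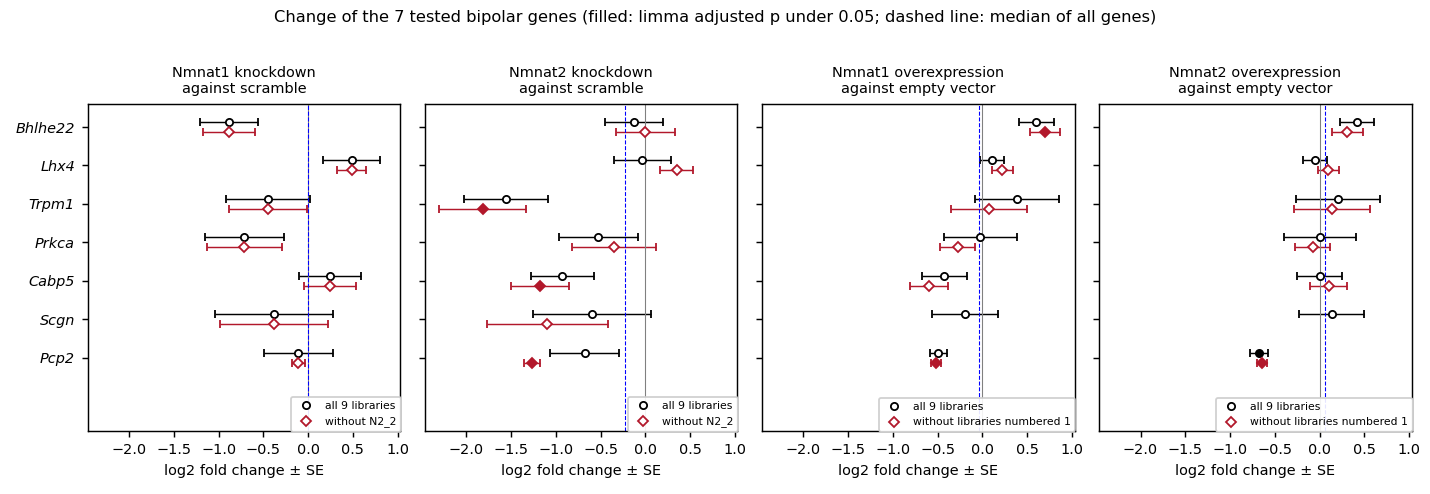
Log2 differences with SE (x axis) of the 7 tested bipolar genes (y axis) in the 4 comparisons with a control, each from the fit on all 9 libraries (black circles) and from the fit without N2_2 or without the libraries numbered 1 (red diamonds). Filled symbols have a limma adjusted p under 0.05, and the dashed line is the median of all genes in the fit on 9 libraries. Pcp2 is filled in 3 of the 4 panels, and Scgn has no red symbol in the overexpression panels because it missed the filter on low levels there.

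Genes that work with these markers were counted as well. Of 10 further genes of the ON bipolar cascade, 0 passed by limma in Nmnat2 knockdown against scramble, 5 had an unadjusted p under 0.05, and 6 were lower in all Nmnat2 knockdown libraries than in any scramble library. Of all genes, 16.8% had an unadjusted p under 0.05 and 21.9% did not overlap in either direction. The median log2 difference of the 10 was -0.62, beside -0.23 for all genes. Without N2_2, Gnb3, Gnb5 and Gng13 passed by limma, all lower, which is 3 of 10, where 15.5% of all genes passed. Gnb5, a G protein beta subunit that stabilises RGS proteins, was at 56.5 ± 16.4 ppm in Nmnat2 knockdown and 123 ± 6.55 ppm in scramble, a log2 difference of -1.15 ± 0.23 (limma adjusted p = 0.0621). Gnb3, the beta subunit of ON bipolar cells and of cones, was at 552 ± 97.3 ppm in Nmnat2 knockdown and 836 ± 43.7 ppm in scramble, a log2 difference of -0.61 ± 0.15 (limma adjusted p = 0.104). Both were higher in Nmnat1 knockdown than in Nmnat2 knockdown, by 1.38 ± 0.23 for Gnb5 and 0.77 ± 0.15 for Gnb3 (limma adjusted p = 0.0144 and 0.0299). In Nmnat1 knockdown against scramble 0 of the 10 passed by limma, and 0 passed without N2_2. With all libraries 1 had an unadjusted p under 0.05, beside 10.5% of all genes, and the median was 0.09.

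Of 12 regulators upstream of or beside the bipolar factors, 0 passed by limma in either knockdown against scramble, with 1 at an unadjusted p under 0.05 in each. Of all genes, 10.5% (Nmnat1) and 16.8% (Nmnat2) had an unadjusted p under 0.05. Otx2, which acts in photoreceptors and bipolar cells, was at 1323 ± 302 ppm in Nmnat2 knockdown and 1812 ± 77.4 ppm in scramble, a log2 difference of -0.48 ± 0.18 (limma adjusted p = 0.211), and of -0.27 ± 0.06 without N2_2, which passed (limma adjusted p = 0.0189). Without N2_2, 6 of the 12 passed in Nmnat1 knockdown, 2 higher and 4 lower, and 4 of the 12 in Nmnat2 knockdown, 3 higher and 1 lower. Of all genes, 8.43% (Nmnat1) and 15.5% (Nmnat2) passed without N2_2. Of 12 other bipolar markers, 9 could be tested in the knockdown table, and 0 passed by limma in either knockdown against scramble, with 0 and 1 at an unadjusted p under 0.05, and 0 passed without N2_2. With all libraries, of the lists of other cells (horizontal, progenitor, Müller glia, ganglion and microglia genes), the Müller glia list alone held genes past the threshold against scramble, Crym in Nmnat1 knockdown and Apoe and Crym in Nmnat2 knockdown, all lower. All 9 tested Müller glia genes were below scramble without overlap in Nmnat1 knockdown, beside 24.8% of all genes in either direction. Without N2_2, all 9 fell in Nmnat1 knockdown, beside 8.43% of all genes. In Nmnat2 knockdown 2 rose and 3 fell, beside 15.5%. Of 11 progenitor genes, 3 then fell in Nmnat1 knockdown, and 1 rose and 2 fell in Nmnat2 knockdown. The horizontal, ganglion and microglia lists held no gene past the threshold in that fit.

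**Figure D3:**
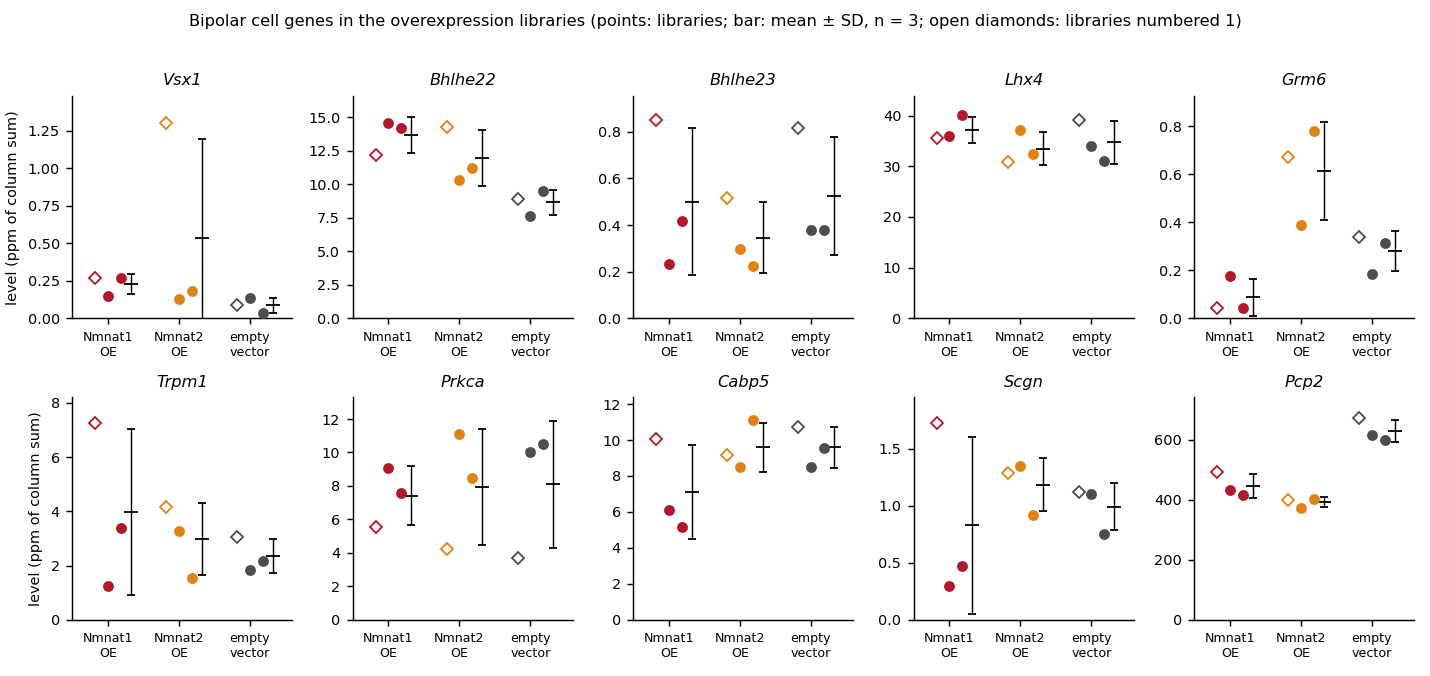
Levels of the 10 bipolar cell genes in the overexpression table, in ppm of the library total on a linear axis from 0, with the groups Nmnat1 OE (overexpression), Nmnat2 OE and empty vector from left to right. Points are libraries, open diamonds are the libraries numbered 1, and bars are the mean and SD of 3 libraries, cut at 0 where they would run below it. Pcp2 lies between 375 and 493 ppm in the overexpression libraries and between 600.4 and 672 ppm in the empty vector libraries, and Bhlhe22 lies above all empty vector libraries in both overexpression groups.

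In the overexpression table Pcp2 was the 1 gene of the 7 that passed with all libraries, in Nmnat2 overexpression. Pcp2 was at 493, 432 and 418 ppm with Nmnat1 overexpression, at 400.6, 375 and 403 ppm with Nmnat2 overexpression and at 672, 617 and 600.4 ppm with the empty vector. No library of either overexpression group reached the empty vector range. Pcp2 fell to 393 ± 15.9 ppm with Nmnat2 overexpression, against 629.8 ± 37.5 ppm with the empty vector (SD, n = 3 each), which is 1.60-fold lower, with a log2 difference of -0.68 ± 0.10 (limma adjusted p = 0.0210; exact two-sided permutation p = 0.1, the smallest that 3 against 3 can give). The call was kept without the libraries numbered 1, at -0.65 ± 0.05 (limma adjusted p = 0.000578). It was lost when v1, v2 or v3 of the empty vector, or Nmnat2 overexpression library 2 or 3, was left out, with limma adjusted p-values of 0.0803, 0.135, 0.102, 0.108 and 0.0928 and log2 differences between -0.71 and -0.63.

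With Nmnat1 overexpression Pcp2 averaged 447 ± 39.9 ppm, against 629.8 ± 37.5 ppm with the empty vector, which is 1.41-fold lower. The log2 difference was -0.49 ± 0.10 and did not pass (limma adjusted p = 0.0978; unadjusted p = 0.000387). It passed without the libraries numbered 1, at -0.52 ± 0.05 (limma adjusted p = 0.00127), and when library 1 of either overexpression group was left out (limma adjusted p = 0.0227 and 0.0311). The arms did not differ past the threshold, at 0.18 ± 0.10 for Nmnat1 overexpression against Nmnat2 overexpression (limma adjusted p = 0.953). Both arms share the empty vector libraries.

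The photoreceptor sums were also lower in most overexpression libraries. The 8 cone genes summed to 1666, 1084 and 1124 ppm with Nmnat1 overexpression, to 1081, 1019 and 1134 ppm with Nmnat2 overexpression and to 1690, 1403 and 1445 ppm with the empty vector. Library 1 of Nmnat1 overexpression was the 1 overexpression library within the empty vector range of the cone sum. Most of that sum was Gngt2, at 1493 ppm in that library and 1134 to 1362 ppm with the empty vector. Opn1sw and Gnat2 were at 112 and 28.4 ppm in that library. Both were below their empty vector ranges of 162 to 235 ppm and 52.6 to 56.8 ppm. The 10 rod genes summed to 2425 to 4335 ppm with Nmnat1 overexpression, 2365 to 3360 ppm with Nmnat2 overexpression and 4852 to 5346 ppm with the empty vector. Of the 8 cone genes, 3 fell with Nmnat2 overexpression (Gnat2, Opn1sw and Pde6h), where 0.55% of all genes passed. With Nmnat1 overexpression 0 of the 8 passed by limma, and 4 had an unadjusted p under 0.05. Of 9 tested rod genes 0 passed by limma, with 5 (Nmnat1) and 6 (Nmnat2) at an unadjusted p under 0.05, beside 9.57% and 10.3% of all genes. Without the libraries numbered 1, 7 of 9 rod genes fell in each overexpression group, and 3 (Nmnat1) and 4 (Nmnat2) of 8 cone genes fell. Of all genes, 11.1% (Nmnat1) and 8.18% (Nmnat2) passed without those libraries. Pet100, on the strand opposite Pcp2, was at 68.1 to 93.3 ppm with Nmnat1 overexpression, at 48.5 to 85.3 ppm with Nmnat2 overexpression and at 72.5 to 86.2 ppm with the empty vector. The part of photoreceptors in the Pcp2 difference was not tested.

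**Figure D4:**
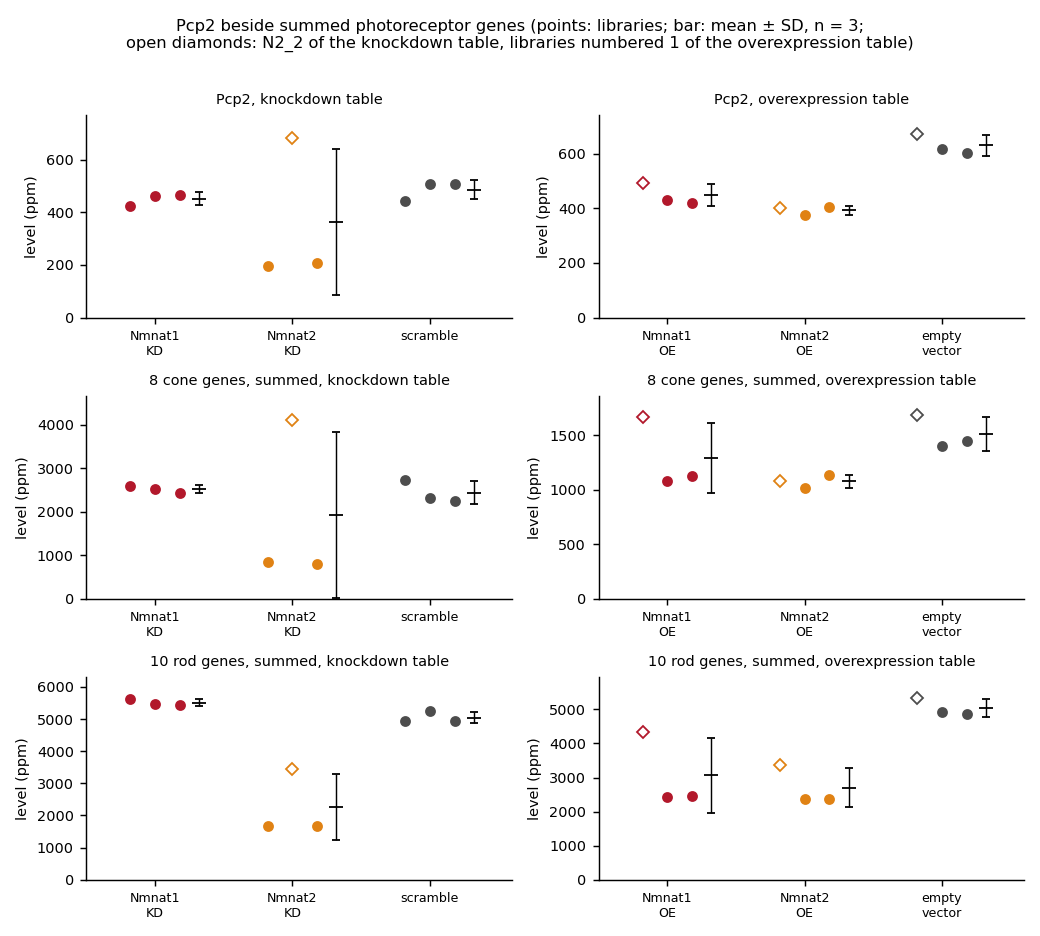
Pcp2 (top), the summed level of 8 cone genes (middle) and the summed level of 10 rod genes (bottom) in the knockdown table (left column) and the overexpression table (right column), in ppm of the library total on linear axes from 0, by group. Points are libraries, open diamonds are N2_2 and the libraries numbered 1, and bars are the mean and SD of 3 libraries. N2_2 has the highest Pcp2 level, 683 ppm, and the highest cone sum, 4120 ppm, of the knockdown table, whereas its rod sum of 3462 ppm is below every scramble library.

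Bhlhe22 was at 12.2, 14.6 and 14.2 ppm with Nmnat1 overexpression, at 14.3, 10.3 and 11.3 ppm with Nmnat2 overexpression and at 8.90, 7.62 and 9.47 ppm with the empty vector. Every overexpression library was above every empty vector library. The log2 difference of Bhlhe22 was 0.60 ± 0.19 with Nmnat1 overexpression (limma adjusted p = 0.291; unadjusted p = 0.01003) and 0.42 ± 0.19 with Nmnat2 overexpression (limma adjusted p = 0.504; unadjusted p = 0.0546). Without the libraries numbered 1 the difference with Nmnat1 overexpression was 0.70 ± 0.17 and passed (limma adjusted p = 0.0397), and the difference with Nmnat2 overexpression was 0.31 ± 0.17 and did not (limma adjusted p = 0.357). The 12 amacrine genes summed to 578 to 874 ppm with Nmnat1 overexpression, to 485 to 813 ppm with Nmnat2 overexpression and to 365 to 383 ppm with the empty vector, so this sum too was above the empty vector in every overexpression library. Nhlh2 rose in both overexpression groups, and Calb2 rose with Nmnat2 overexpression, of the 12. Of the 11 amacrine genes that could still be tested without the libraries numbered 1, 9 rose in each overexpression group. Of all genes, 0.121% (Nmnat1) and 0.55% (Nmnat2) passed with all libraries, and 11.1% and 8.18% without those numbered 1. The part of amacrine cells in the Bhlhe22 difference was not tested.

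Lhx4 overlapped between all 3 groups of this table. It was at 35.6, 35.9 and 40.1 ppm with Nmnat1 overexpression, at 30.8, 37.1 and 32.5 ppm with Nmnat2 overexpression and at 39.2, 33.9 and 30.9 ppm with the empty vector. Its log2 differences were 0.10 ± 0.13 and -0.05 ± 0.13 (limma adjusted p = 0.908 and 0.946). Vsx1 was at 0.150 to 0.272 ppm with Nmnat1 overexpression, at 1.30, 0.126 and 0.183 ppm with Nmnat2 overexpression and at 0.0369 to 0.138 ppm with the empty vector. Bhlhe23 was at 0.235 to 0.849 ppm, 0.223 to 0.516 ppm and 0.377 to 0.818 ppm in the same order of groups, and the groups overlapped.

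The cascade genes did not separate the overexpression groups from the empty vector in one direction. Trpm1 was at 7.27, 1.26 and 3.39 ppm with Nmnat1 overexpression, at 4.15, 3.29 and 1.54 ppm with Nmnat2 overexpression and at 3.05, 1.84 and 2.17 ppm with the empty vector. The libraries numbered 1 were the highest of each group, and the log2 differences were 0.39 ± 0.47 and 0.21 ± 0.47 (limma adjusted p = 0.893 and 0.935). Grm6 was at 0.0428 to 0.178 ppm with Nmnat1 overexpression, at 0.387 to 0.781 ppm with Nmnat2 overexpression and at 0.185 to 0.340 ppm with the empty vector. The 3 groups of Grm6 values did not overlap, but all were below the filter of 1 ppm and were not tested. Of the genes that were tested, 17.8% (Nmnat1) and 16.3% (Nmnat2) did not overlap with the empty vector, and 8.34% between the arms.

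Cabp5 was at 10.1, 6.11 and 5.14 ppm with Nmnat1 overexpression, at 9.18, 8.49 and 11.1 ppm with Nmnat2 overexpression and at 10.8, 8.47 and 9.55 ppm with the empty vector. Its log2 differences were -0.43 ± 0.25 and -0.00 ± 0.25 (limma adjusted p = 0.682 and 1.00). Prkca was at 5.57 to 9.09 ppm with Nmnat1 overexpression, at 4.26 to 11.1 ppm with Nmnat2 overexpression and at 3.71 to 10.5 ppm with the empty vector, and the lowest value of each group was its library 1. Scgn was at 0.299 to 1.72 ppm, 0.919 to 1.35 ppm and 0.752 to 1.12 ppm in the same order of groups, which overlapped. The adjusted p-values of Prkca and Scgn by limma were between 0.942 and 1.00 in both comparisons with the empty vector.

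Counted together, 0 of the 7 tested bipolar genes passed by limma in Nmnat1 overexpression against empty vector, where 0.121% of all 20725 tested genes passed, and 2 had an unadjusted p under 0.05, beside 9.57% of all genes. Groups did not overlap for 2 of the 7 (Pcp2 lower and Bhlhe22 higher), beside 17.8% of all genes. Their median log2 difference was -0.02, beside -0.04 for all genes. Without the libraries numbered 1, Pcp2 and Bhlhe22 passed, which is 2 of the 6 genes that could still be tested, where 11.1% of all genes passed.

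In Nmnat2 overexpression against empty vector 1 of the 7 passed by limma (Pcp2), where 0.55% of all genes passed. Groups did not overlap for 2 of the 7, again Pcp2 lower and Bhlhe22 higher, beside 16.3% of all genes. The median log2 difference of the 7 was 0.00, beside 0.06 for all genes. Without the libraries numbered 1, Pcp2 was the 1 gene of 6 that passed, where 8.18% of all genes passed. In Nmnat1 overexpression against Nmnat2 overexpression 0 of the 7 passed by limma, where 0.0193% of all genes passed, and 0 had an unadjusted p under 0.05, beside 4.46% of all genes. The groups did not overlap for 1 of the 7 (Pcp2, higher with Nmnat1 overexpression), beside 8.34% of all genes.

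Among the 9 of 10 further ON cascade genes that could be tested here, 1 passed, in Nmnat2 overexpression, where 0.55% of all genes passed. Gnb3 fell to 611 ± 57.8 ppm with Nmnat2 overexpression, against 981 ± 46.5 ppm with the empty vector, a log2 difference of -0.69 ± 0.10 (limma adjusted p = 0.0258), and it passed without the libraries numbered 1 at -0.65 ± 0.04 (limma adjusted p = 0.000226). With Nmnat1 overexpression 0 of the 9 passed by limma and 3 had an unadjusted p under 0.05, with Gnb3 at 716 ± 57.2 ppm and a log2 difference of -0.46 ± 0.10 (limma adjusted p = 0.134). Gnb3 and Gnb5 passed without the libraries numbered 1 with Nmnat1 overexpression, both lower, and Gnb3 alone of the 9 passed with Nmnat2 overexpression. Of the 12 regulators 0 passed by limma in either overexpression against empty vector, with 2 (Nmnat1) and 4 (Nmnat2) at an unadjusted p under 0.05. Of all genes, 9.57% and 10.3% had an unadjusted p under 0.05 in these comparisons. Crx, the photoreceptor and bipolar homeodomain factor, was at 607 ± 12.8 ppm with Nmnat2 overexpression and 776 ± 28.2 ppm with the empty vector, a log2 difference of -0.35 ± 0.10 (limma adjusted p = 0.199), and of -0.34 ± 0.04 without the libraries numbered 1, which passed (limma adjusted p = 0.00276). Without these libraries 9 of the 12 regulators passed with Nmnat1 overexpression, 7 higher and 2 lower, and 6 with Nmnat2 overexpression, 5 higher and 1 lower. Of all genes, 11.1% (Nmnat1) and 8.18% (Nmnat2) passed without these libraries. Of the other bipolar markers 7 of 12 could be tested, and 0 passed by limma or had an unadjusted p under 0.05 in either comparison with the empty vector. With all libraries, the pigment cell, horizontal, progenitor, Müller glia, ganglion and microglia lists held no gene past the limma threshold against the empty vector, with at most 1 gene of a list at an unadjusted p under 0.05. Without the libraries numbered 1, 5 (Nmnat1) and 6 (Nmnat2) of 9 Müller glia genes rose, beside 11.1% and 8.18% of all genes. Of 11 progenitor genes, 2 then rose and 1 fell with Nmnat1 overexpression, and 2 rose with Nmnat2 overexpression. Nefm of the ganglion list rose with Nmnat2 overexpression, and the pigment cell, horizontal and microglia lists held no gene past the threshold.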

How the data were processed

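Cells with EGFP were isolated by FACS, and libraries were made from total RNA with SMART-Seq v4 cDNA and Nextera DNA Flex, per the labels' protocols. Strand is not kept by this chemistry, so reads from sequence that antisense genes share cannot be assigned by strand. Gene spans overlap on opposite strands for Pcp2 with Pet100, Trpm1 with Gm44722 and Mir6416, and Grm6 with Gm12660. They also do for Prkca with Apoh and others, and for Scgn with Gm11339. Whether the exons of these genes overlap was not examined. On the same strand, Gm14343 overlaps Bhlhe23, and Mir211 and Gm44719 overlap Trpm1. The submitters' processing notes name Salmon 0.11.3, sleuth 0.30.0 and GRCm38.p6. The deposited values are called TPM, but columns summed to 14.4 to 29.6 (knockdown) and 17.3 to 26.2 (overexpression) times 1000000. They were therefore handled as a signal scaled to transcript length, whose exact deposited unit is not given. The cut-off last line of each table was dropped. Knockdown columns show a library's group but not its sample, and are called by their column names (C1 to C3 for scramble).

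Total reads are not given. In genes with 1 transcript, 67.9% to 83.2% of low values per library lay within 0.1 of a whole number of reads. The value of 1 read was fitted in each library to raise this share. The 20% of evenly spread values is therefore not its chance level. By that fit, 1 ppm of a 1 kb transcript stands for about 11.3 to 20.8 reads. Genes with more transcripts gave no whole reads, so no count test was run.

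Values were rescaled so that each column sums to 1000000 (ppm). A gene was kept where 3 or more of the 9 libraries of a table reached 1 ppm. log2(ppm + 1), which understates changes of low genes, was modelled in R 4.3.3 with limma 3.58.1, with the 3 groups of a table in 1 fit, a mean-variance trend and empirical Bayes moderation. Tests were two-sided, adjusted by Benjamini-Hochberg within a comparison, with a threshold of 0.05. They were also run on simulated data with independent noise. No simulated library stood apart, so that run cannot show how such libraries affect the tests. The tables were not tested against each other. The 10 genes and the lists of further cascade genes, regulators, bipolar markers, and amacrine, rod, cone, pigment cell, horizontal, progenitor, Müller glia, ganglion cell and microglia genes were chosen with earlier results of these data known. All 10 genes are named, and of another list up to 4 genes with the smallest unadjusted p in a comparison and any past the threshold. A result on 1 further gene is not reported here. Gene coordinates come from GENCODE M21 on GRCm38 and promoters from RefSeq on GRCm38.p6. Whether the authors used that annotation is not known. Alternatives covered the pseudocount, filter, scaling, groups in the fit, array weights, left-out libraries and a replicate block. Plots were made in Python 3.11.15 (matplotlib 3.10.9).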

Additional observations from a re-analysis of the deposited data

How the results depend on the processing

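For the 7 tested bipolar genes and 4 comparisons with a control, 28 log2 differences were recomputed under 14 alternatives in the knockdown table and 16 in the overexpression table. Of 418 values, 371 kept their direction and their side of the threshold, 13 newly passed, 5 no longer passed and 29 changed sign. The cause was not tested for any of these changes.

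Under median-of-ratios scaling the signs changed for Bhlhe22 (0.085) and Lhx4 (0.20) in Nmnat2 knockdown, Prkca (0.0040) in Nmnat1 overexpression and Prkca (-0.040) in Nmnat2 overexpression. With array weights they changed for Lhx4 (0.32) in Nmnat2 knockdown and for Cabp5 (0.067) and Lhx4 (0.046) in Nmnat2 overexpression. Without the libraries numbered 1 they changed for Cabp5 (0.10), Lhx4 (0.10) and Prkca (-0.076) in Nmnat2 overexpression. None of these values passed the test.

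With 1 library left out at a time, log2 differences ranged across 0 for Scgn (-0.96 to 0.16) in Nmnat1 knockdown, Bhlhe22 (-0.29 to 0.035) and Lhx4 (-0.26 to 0.35) in Nmnat2 knockdown, Prkca (-0.44 to 0.20), Trpm1 (-0.075 to 0.86) and Scgn (-0.52 to 0.0097) in Nmnat1 overexpression, and Cabp5 (-0.10 to 0.076), Lhx4 (-0.13 to 0.040), Prkca (-0.42 to 0.34) and Trpm1 (-0.0085 to 0.50) in Nmnat2 overexpression.

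The number of bipolar genes past the threshold with 1 library left out ranged from 0 to 3 in Nmnat2 knockdown (3 without N2_2), 0 to 2 between the knockdown arms (2 without N2_2), 0 to 1 in Nmnat1 overexpression and 0 to 1 in Nmnat2 overexpression. With array weights, which lower the weight of libraries that stand apart, it was 3 in Nmnat2 knockdown (Pcp2, Cabp5 and Trpm1), 4 between the knockdown arms (Pcp2, Cabp5, Bhlhe22 and Trpm1) and 2 in Nmnat1 overexpression (Pcp2 and Bhlhe22). It was 2 in Nmnat1 overexpression without the libraries numbered 1.

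Over all genes, the number past the threshold moved as follows. In Nmnat1 knockdown (32) it was 17 with a pseudocount of 0.1, 14 with no filter, 1029 with 2 groups in the fit, 868 with array weights and 0 to 1826 with 1 library left out. In Nmnat2 knockdown (97) it was 32 with no filter, 0 with 2 groups in the fit, 5101 with array weights and 0 to 3359 with 1 library left out. Between the knockdown arms (458) it was 150 with 2 groups in the fit, 6072 with array weights and 83 to 2933 with 1 library left out. In Nmnat1 overexpression (25) it was 16 with no filter, 9 with median-of-ratios scaling, 1540 with array weights, 1951 without the libraries numbered 1 and 3 to 271 with 1 library left out. In Nmnat2 overexpression (114) it was 48 with no filter, 71 with median-of-ratios scaling, 1251 with array weights, 1431 without the libraries numbered 1 and 3 to 321 with 1 library left out. Between the overexpression arms (4) it was 2 with 2 groups in the fit, 25 with array weights, 51 without the libraries numbered 1 and 2 to 9 with 1 library left out.

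The overexpression samples carry replicate numbers, but deviations of same-numbered libraries correlated at 0.211, 0.217 and 0.461 for number 1, 0.144, 0.124 and 0.285 for number 2 and 0.0664, 0.0271 and 0.139 for number 3 across genes. Of these 9 pairs 7 were over 0.1 and 2 were not, and the labels do not say what a number shares, so the values reported come from fits without a block. With the replicate block 187 genes passed in Nmnat1 overexpression and 269 in Nmnat2 overexpression, and 1 of the bipolar genes passed in each, Pcp2 (limma adjusted p = 0.0346 and 0.0141). No paired analysis was possible because of the missing link between columns and numbered samples in the knockdown table.

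Low levels limit Vsx1, Grm6 and Bhlhe23, which were not tested. About 1.96 to 58.8 reads of Vsx1 and 0 to 40.9 reads of Bhlhe23 per library stood behind their values.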
